A study of Mus musculus with 30 samples.

Results

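The substrate receptors of cullin-RING ubiquitin ligases that carry F-box, Kelch-like or ASB gene symbols were followed in extensor digitorum longus (EDL) muscle. Members were the genes named FBXO, FBXL, FBXW, KLHL or ASB followed by a number, without FBXO32, FBXO30, FBXO21, FBXO31 and FBXO40 and with a mean above 1 RPKM (reads scaled to gene length and to the depth of the library) over all 30 samples. This gave 83 members of 130 genes with such symbols, in a table of 21073 genes of which 10989 exceeded the same floor. The 83 comprised 25 KLHL, 20 FBXO, 16 ASB, 14 FBXL and 8 FBXW genes, and all 83 were found in the reference annotation. Just inside the floor lay FBXL18 and FBXL16 (both 1.24 RPKM), FBXL8 (1.07 RPKM) and KLHL36 (1.05 RPKM), and just outside it KLHL28 (0.977 RPKM), FBXO44 (0.895 RPKM), KLHL42 (0.879 RPKM) and KLHL4 (0.731 RPKM).

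EDL, a fast hindlimb muscle, was taken from wild-type female SJL/J mice in experimental autoimmune encephalomyelitis (EAE), a model of multiple sclerosis, and its poly(A) RNA was sequenced. The groups were unimmunized mice (Ctrl), mice immunized with ovalbumin (OVA) in complete Freund's adjuvant (CFA), and mice in which EAE was induced with a proteolipid protein (PLP) peptide in CFA and no pertussis toxin, each on day 14 (peak) and day 40 (chronic remission), with 5 samples a group. The immunized groups share CFA, and the age of the mice is not given in the sources used here. The sources do not say that each library came from its own mouse, so p-values measure the spread between these samples; different samples were taken on the 2 days.

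Cullin-RING ligases are assembled from exchangeable parts: a cullin scaffold holds a RING protein that recruits the ubiquitin-charged enzyme at one end, and at the other end an adaptor and a receptor that choose the substrate. F-box proteins (FBXO, FBXL, FBXW) dock through SKP1 on CUL1, Kelch-like proteins bind CUL3 through their own BTB domain, and ASB proteins dock through elongins B and C on CUL5. In skeletal muscle several Kelch-like and ASB receptors are known as sarcomeric or muscle-restricted proteins, and mutations in KLHL40 and KLHL41 cause nemaline myopathy.

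The estimated depth was 17900000 to 31400000 assigned reads a sample (median 21475000), and EAE replicate 3 of day 14 was the deepest. At the median depth 1 RPKM of the median member corresponded to 69.9 reads, and of the shortest to 19.3 reads. Ctrl replicate 1 of day 14 stood farthest from its group, with a median SD of log2 differences to the other 4 samples of 0.568. Results that rest on it are therefore given without it as well. Replicate 1 was also the farthest sample of the OVA group (0.541) and of the EAE group (0.459) of day 14. The tissue label was met by its markers: fast-fibre markers summed to 55310 to 122200 RPKM over the 6 groups and slow-fibre markers to 1067 to 3081 RPKM.

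Kelch-like and ASB genes dominated the members' levels. KLHL41, which stabilises sarcomeric proteins such as nebulin, was the most abundant with a mean of 361 RPKM over the 30 samples. It was followed by ASB2 (168 RPKM), a receptor for filamins, ASB5 (105 RPKM) and ASB11 (101 RPKM). KLHL40 (86.8 RPKM), ASB8 (62.3 RPKM), KLHL21 (62.0 RPKM), KLHL33 (53.3 RPKM), KLHL31 (51.1 RPKM) and KLHL30 (36.1 RPKM) completed the 10 highest, which together held 64.1% of the summed member level. Of the 18 members above 20 RPKM, 15 were KLHL or ASB genes. A further 31 members lay between 5 and 20 RPKM and 34 between 1 and 5 RPKM. Median levels per family were 16.9 RPKM for ASB, 10.3 RPKM for FBXW, 10.1 RPKM for KLHL, 6.64 RPKM for FBXO and 3.24 RPKM for FBXL. In the summed level the groups stayed within a narrow band, from 1625 ± 61.9 RPKM in OVA to 1779 ± 97.0 RPKM in EAE on day 14 (SD, n = 5). The 10 most abundant genes of each library, members or not, held 22.5% to 24.2% of all RPKM in EAE on day 14. In Ctrl and OVA of that day they held 24.9% to 28.7%. The part of this difference in the RPKM values of the members was not tested.

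**Figure D1:**
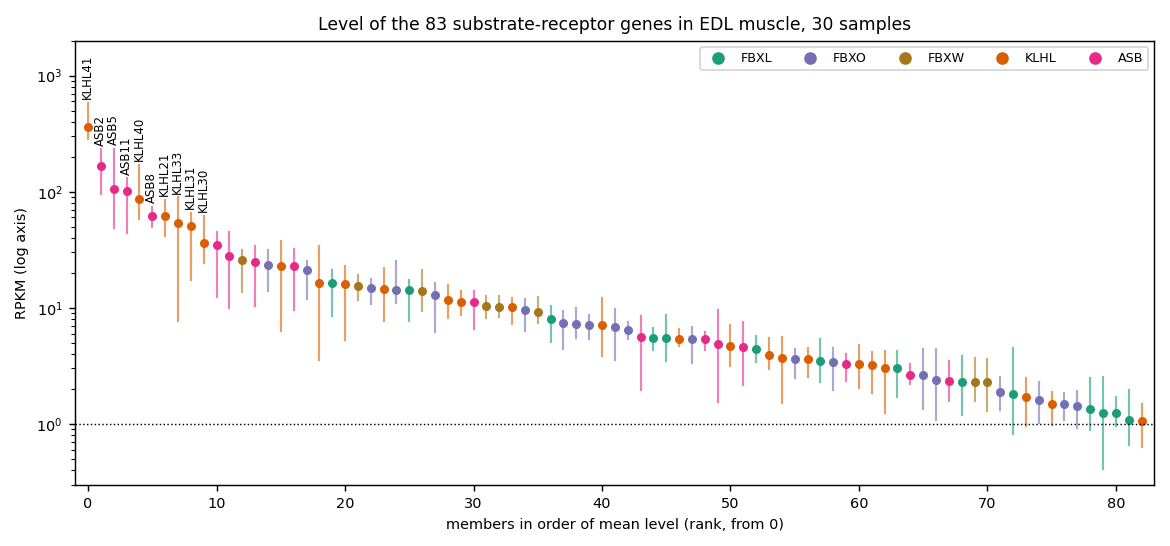
Mean level of each of the 83 members over the 30 samples (points; log axis in RPKM), ordered by rank and coloured by family, with vertical lines from the lowest to the highest sample and the 10 highest named. KLHL41 stood at 361 RPKM, and the dotted line marks the floor of 1 RPKM.

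To ask which receptors differed at the peak of EAE, EAE-induced mice were compared with unimmunized mice on day 14. Of the 83 members, 12 were called (14.5%; adjusted p below 0.05 and fold change above 1.5), 8 lower and 4 higher, where 25.5% of all 10989 genes tested were called, 12.6% lower and 12.8% higher. After median-of-ratios scaling the split was 10 lower and 1 higher. The called members were Kelch-like and ASB genes: 7 of 25 KLHL genes (4 lower, 3 higher) and 5 of 16 ASB genes (4 lower, 1 higher) passed, against 0 of 14 FBXL, 0 of 20 FBXO and 0 of 8 FBXW genes in limma's test, of which 4, 10 and 5 had an unadjusted p below 0.05. This split between families did not hold without Ctrl replicate 1, where FBXL12 (-0.67, adjusted p = 0.00115) was called lower and FBXO36 (0.63, adjusted p = 0.0233) higher; with it they had -0.52 ± 0.16 and 0.55 ± 0.20. By level, 8 of the 18 members above 20 RPKM were called (44.4%; 28.7% of all genes at that level), 1 of 31 at 5 to 20 RPKM (3.23%; 22.0%) and 3 of 34 at 1 to 5 RPKM (8.82%; 26.9%). The median log2 fold change was 0.13 over the members and 0.08 over all genes. These counts describe the members and were not tested against other genes. Fewer cells of a type and less RNA per cell cannot be told apart in whole muscle.

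**Figure D2:**
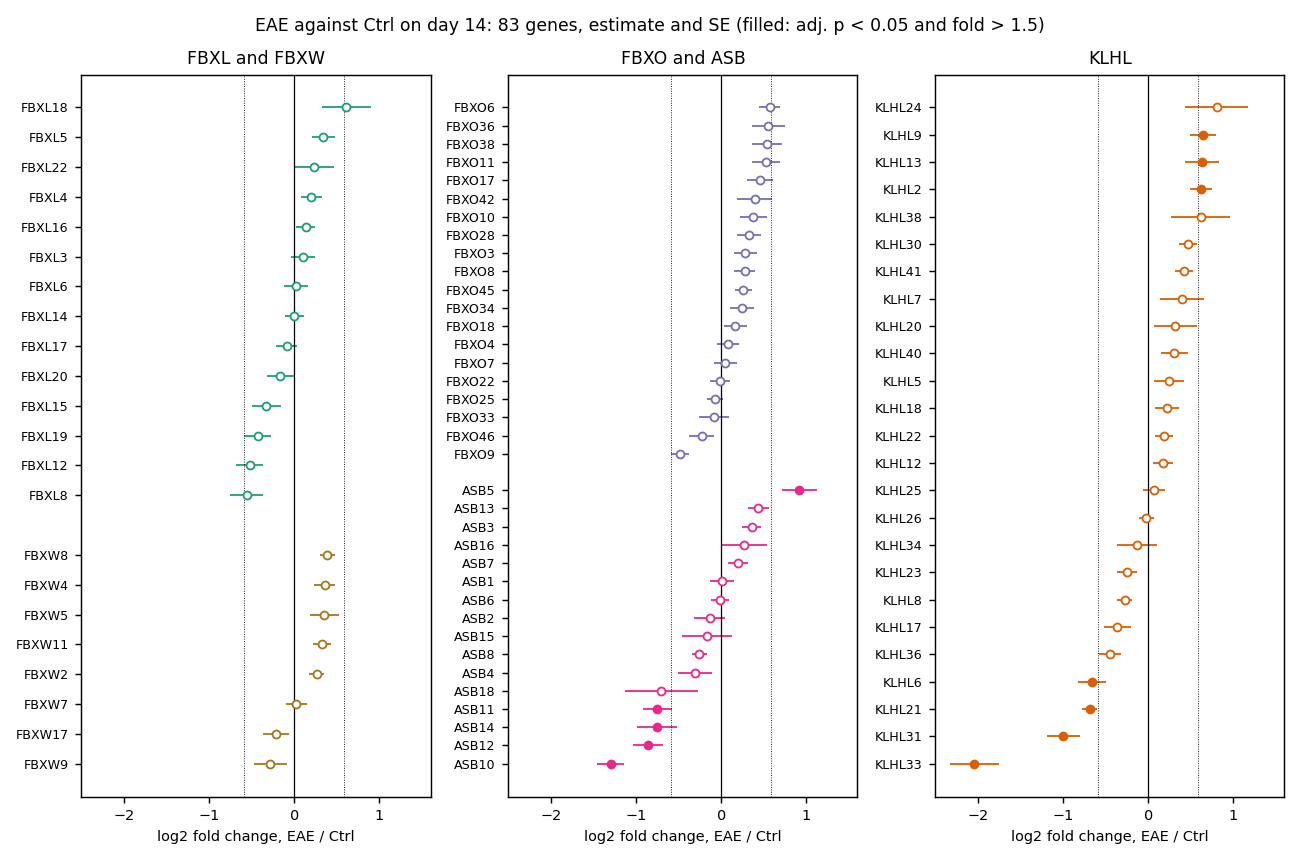
Log2 fold change of EAE over Ctrl on day 14 for the 83 members by family, with horizontal lines for the standard error; filled points mark the 12 called members and dotted lines a fold change of 1.5. KLHL33 at -2.04 is the farthest to the left and ASB5 at 0.92 the farthest to the right.

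KLHL33 showed the largest decrease of any member. It measured 53.9, 48.5, 46.0, 57.3 and 57.0 RPKM in the unimmunized mice of day 14, 39.2, 56.2, 52.3, 61.7 and 29.2 RPKM in the OVA-immunized mice, and 7.65, 9.31, 27.6, 16.3 and 10.1 RPKM in the EAE-induced mice. Every EAE sample lay below every sample of both other groups. The log2 fold change was -2.04 ± 0.29 (SE) against Ctrl (adjusted p = 7.59e-05) and -1.86 ± 0.29 against OVA (adjusted p = 1.94e-04).

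ASB10, a muscle-expressed ASB receptor, measured 44.7, 42.1, 36.5, 43.8 and 36.9 RPKM in Ctrl, 35.1, 35.7, 41.7, 42.4 and 40.2 RPKM in OVA and 14.1, 12.3, 26.0, 17.7 and 15.1 RPKM in EAE on day 14. The EAE range again lay wholly below those of both other groups. Its log2 fold change was -1.30 ± 0.16 against Ctrl (adjusted p = 2.15e-05) and -1.24 ± 0.16 against OVA (adjusted p = 3.89e-05).

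KLHL31, a Kelch-like protein required for normal sarcomeres and known to target filamin C, measured 58.8, 55.8, 59.2, 53.7 and 50.5 RPKM in Ctrl and 25.3, 17.4, 45.0, 37.6 and 22.3 RPKM in EAE. No sample of one group reached the other. OVA samples ranged from 41.7 to 51.9 RPKM and overlapped the EAE range through EAE replicate 3. The log2 fold change was -0.997 ± 0.19 against Ctrl (adjusted p = 9.68e-04) and -0.73 ± 0.19 against OVA (adjusted p = 0.00913); the latter became -0.57 without EAE replicate 2 and was then under the fold threshold.

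ASB12 measured 22.9, 28.0, 33.8, 25.6 and 27.3 RPKM in Ctrl, 26.4, 27.7, 29.7, 28.2 and 28.2 RPKM in OVA and 16.1, 11.0, 19.6, 20.9 and 10.4 RPKM in EAE. The groups did not overlap, and the log2 fold change was -0.86 ± 0.17 against Ctrl (adjusted p = 0.00122) and -0.90 ± 0.17 against OVA (adjusted p = 0.00114). ASB11, known as an endoplasmic reticulum receptor for the death factor BIK, measured 125, 106, 130, 110 and 94.8 RPKM in Ctrl and 63.2, 44.3, 101, 72.3 and 66.3 RPKM in EAE. EAE replicate 3 alone reached into the Ctrl range. The log2 fold change of ASB11 was -0.75 ± 0.17 against Ctrl (adjusted p = 0.00313) and -0.69 ± 0.17 against OVA (adjusted p = 0.00679), the latter -0.54 and under the fold threshold without EAE replicate 2.

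ASB14 measured 16.5, 23.7, 23.0, 30.8 and 28.8 RPKM in Ctrl and 10.0, 10.4, 25.4, 16.1 and 13.6 RPKM in EAE. EAE replicate 3 alone reached into the Ctrl range. Its log2 fold change was -0.75 ± 0.23 against Ctrl (adjusted p = 0.0155) and -0.70 ± 0.23 against OVA (adjusted p = 0.0288). The call against OVA was lost without any of OVA replicates 2, 3 and 4 or EAE replicates 1, 2 and 5, at adjusted p of 0.0560 to 0.0823. KLHL21, a receptor known for directing Aurora B in cytokinesis, measured 77.9, 71.6, 72.5, 85 and 72.4 RPKM in Ctrl and 43.1, 47.9, 56.6, 41.9 and 46.8 RPKM in EAE, with no overlap. It was called against Ctrl (log2 fold change -0.69 ± 0.09, adjusted p = 4.07e-05) but was under the fold threshold against OVA (-0.44 ± 0.09, adjusted p = 0.00155), where OVA samples of 60.3 to 69.1 RPKM also lay above every EAE sample.

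KLHL6, a receptor known from B lymphocytes, was much lower in level and measured 2.00, 1.59, 1.94, 2.47 and 1.89 RPKM in Ctrl and 0.974, 0.957, 1.42, 1.54 and 1.25 RPKM in EAE. The groups did not overlap, and the log2 fold change was -0.66 ± 0.16 against Ctrl (adjusted p = 0.00471) and -0.66 ± 0.16 against OVA (adjusted p = 0.00596). It fell under the fold threshold, at -0.58, without Ctrl replicate 4, EAE replicate 1 or EAE replicate 2 in the first comparison and without OVA replicate 2 or EAE replicate 2 in the second. The 8 lymphocyte markers followed were all under 1 RPKM on average and summed to 2.05 to 3.79 RPKM in Ctrl and 1.55 to 2.36 RPKM in EAE, and macrophage markers (5 of 8 lower) summed to 272 to 411 RPKM and 130 to 292 RPKM. The part of these cells in the KLHL6 result was not tested.

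Upstream sequences are shown for the members at the far ends of the comparison and for the pair that share a motif. Starts and sequences came from RefSeq (GRCm38.p6), where 68 of the 83 members had an entry; each line runs from base 250 to base 31 before the most upstream start in the promoter table and holds no annotated exon, and capitals mark the MEF2 core, CTA and TAG set 4 bases apart. KLHL33 (chr14:50897514-50897733, minus strand) and ASB12 (chrX:95478160-95478379, minus strand) each hold the core once, 50 and 48 bases before the start. The only start of ASB12 in that table lies inside its annotated gene. ASB10 (chr5:24541009-24541228, minus strand) and ASB5 (chr8:54550081-54550300, plus strand) hold none of the searched motifs in the stretches shown. The genes themselves span chr14:50888581-50897483 (KLHL33), chrX:95469527-95558004 (ASB12), chr5:24532697-24540978 (ASB10) and chr8:54550331-54587842 (ASB5).
KLHL33: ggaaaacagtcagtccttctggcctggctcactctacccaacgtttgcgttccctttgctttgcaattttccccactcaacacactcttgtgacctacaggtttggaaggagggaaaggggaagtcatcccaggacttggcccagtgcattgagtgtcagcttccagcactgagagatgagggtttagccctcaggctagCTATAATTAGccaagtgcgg
ASB12: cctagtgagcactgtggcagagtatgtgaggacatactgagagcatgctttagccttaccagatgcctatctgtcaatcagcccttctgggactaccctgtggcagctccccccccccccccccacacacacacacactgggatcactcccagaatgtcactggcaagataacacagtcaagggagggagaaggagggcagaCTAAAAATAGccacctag
ASB10: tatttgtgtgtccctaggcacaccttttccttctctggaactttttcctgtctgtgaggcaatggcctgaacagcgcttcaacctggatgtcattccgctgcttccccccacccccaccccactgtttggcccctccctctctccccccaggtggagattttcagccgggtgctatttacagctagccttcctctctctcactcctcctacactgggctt
ASB5: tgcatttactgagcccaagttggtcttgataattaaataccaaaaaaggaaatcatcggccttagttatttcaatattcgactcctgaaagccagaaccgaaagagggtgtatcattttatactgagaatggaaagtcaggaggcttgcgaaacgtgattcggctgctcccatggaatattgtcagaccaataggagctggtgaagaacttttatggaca
In windows from 250 bases before to 50 after each start, on both strands, the MEF2 core was found in 8 of the 68 members (11.8%) and in 4.23% of the 27018 genes with an entry, or 3.69% of the 32841 windows. The E-box CAGCTG, bound by myogenic factors, was found in 18 members (26.5%), 18.3% of genes and 16.3% of windows. The FoxO core GTAAACA was found in 2 members (2.94%), 4.05% of genes and 3.65% of windows. The MEF2 core and CAGCTG are their own reverse complements, and none of these motifs contains another. Of the 10 members called lower in either EAE comparison of day 14, KLHL33 and ASB12 held the MEF2 core and KLHL21 and KLHL6 held CAGCTG. Of the 7 called higher, 4 held CAGCTG and 0 held either other motif. A match describes letters only.

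Among the members called higher in EAE against Ctrl, ASB5, an ASB receptor known from satellite cells and growing arteries, was the most abundant and the one called in both day 14 comparisons. It measured 48.4, 87.8, 99.7, 87.6 and 84.1 RPKM in Ctrl, 103, 79.1, 102, 92.9 and 113 RPKM in OVA and 234, 160, 118, 119 and 144 RPKM in EAE. EAE replicate 1 was the highest, and every EAE sample lay above those of both other groups. The log2 fold change was 0.92 ± 0.20 against Ctrl (adjusted p = 0.00228; 0.74 without Ctrl replicate 1) and 0.62 ± 0.20 against OVA (adjusted p = 0.0275). The call against OVA was lost without OVA replicate 2 or 4 or EAE replicate 1 or 2, at adjusted p of 0.0546 to 0.0664 and with the lowest value, 0.46, without EAE replicate 1. It was also lost without a filter on low values (adjusted p = 0.0531). After median-of-ratios (0.55) or quantile (0.54) scaling the ASB5 fold against OVA was under 1.5.

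The other members called higher against Ctrl, KLHL9, KLHL13 and KLHL2, passed the fold threshold only with Ctrl replicate 1 in the fit. KLHL9, mutated in a distal myopathy and a partner of KLHL13 in Aurora B ubiquitination, measured 7.65, 13.7, 14.1, 13.7 and 13.2 RPKM in Ctrl and 21.8, 20.5, 16.4, 19.0 and 18.1 RPKM in EAE. KLHL13 measured 1.23, 2.98, 2.83, 2.80 and 2.93 RPKM in Ctrl and 4.23, 3.71, 3.32, 4.23 and 3.81 RPKM in EAE. KLHL2, which targets WNK kinases, measured 2.04, 3.01, 2.77, 3.16 and 3.14 RPKM in Ctrl and 4.78, 4.81, 3.82, 3.90 and 4.53 RPKM in EAE. In all of them the groups did not overlap and Ctrl replicate 1 was the lowest sample. Log2 fold changes were 0.64 ± 0.15 for KLHL9 (adjusted p = 0.00329), 0.63 ± 0.20 for KLHL13 (adjusted p = 0.0172) and 0.62 ± 0.13 for KLHL2 (adjusted p = 0.00123). Without Ctrl replicate 1 they were 0.48, 0.40 and 0.51, all under the fold threshold of 1.5 with adjusted p = 0.00167, 0.00991 and 0.00135, and 2 members were called higher and 9 lower. KLHL9 and KLHL13 are close paralogs, so reads may be split between them.

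Without the fold threshold 34 members had an adjusted p below 0.05, 19 higher and 15 lower, against 44.1% of all genes. F-box genes supplied 15 of these 34: 4 FBXL genes (1 higher, 3 lower), 7 FBXO genes (6 higher, 1 lower) and 4 FBXW genes (all 4 higher). FBXO6, which binds glycoproteins retrieved from the endoplasmic reticulum, had the smallest adjusted p among the F-box members and measured 14.1 ± 1.23 RPKM in Ctrl and 21.1 ± 3.10 RPKM in EAE (SD, n = 5), a log2 fold change of 0.57 ± 0.12 (adjusted p = 0.00173). In all, 16 members had every EAE sample above every Ctrl sample (18.3% of all genes did) and 7 had every EAE sample below (10.8%).

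Of the remaining highly expressed members, KLHL41 measured 341, 339, 381, 332 and 333 RPKM in Ctrl and 587, 425, 394, 475 and 443 RPKM in EAE, with no overlap and a log2 fold change of 0.42 ± 0.11 (adjusted p = 0.00576). KLHL30 was likewise separated, at 33.3 to 40.1 RPKM in Ctrl and 43.2 to 61.9 RPKM in EAE (0.47 ± 0.11, adjusted p = 0.00358). Both stayed under the fold threshold. ASB8 had a log2 fold change of -0.26 ± 0.09 (adjusted p = 0.0250). ASB2 measured 95.9, 158, 232, 144 and 201 RPKM in EAE against 159 to 205 RPKM in Ctrl, and its difference of -0.13 ± 0.18 (adjusted p = 0.573) was smaller than the spread between EAE samples.

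**Figure D3:**
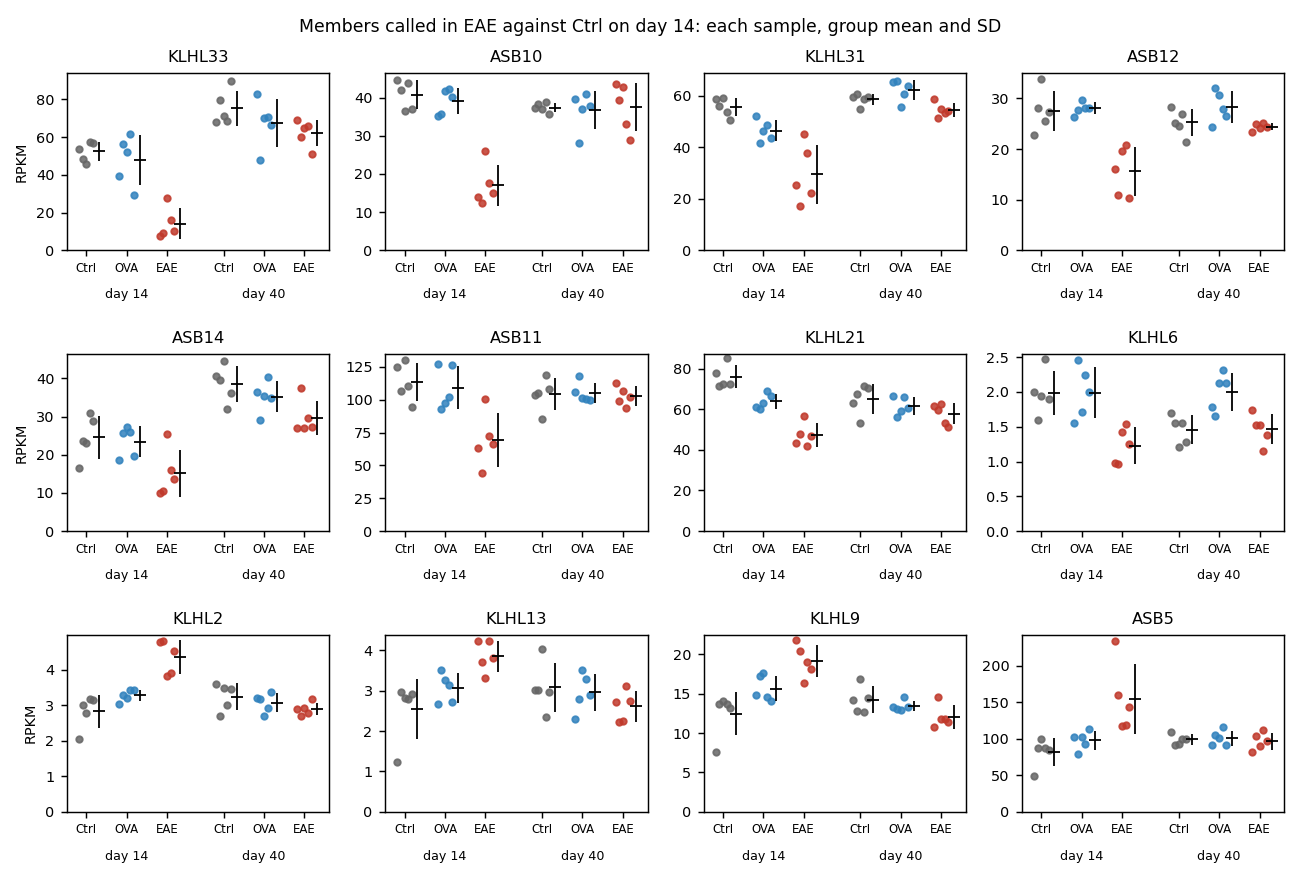
RPKM of the 12 members called in EAE against Ctrl on day 14, in each of the 5 samples per group on both days (points; axes start at 0), with the group mean and SD beside them in black. KLHL33 fell to 14.2 ± 8.18 RPKM in EAE on day 14 and stood at 62.2 ± 6.85 RPKM in EAE on day 40.

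Within the EAE group of day 14, replicate 3, the deepest library, was the highest EAE sample for 6 of the 8 members called lower and the lowest for all 4 called higher. Without it 8 members were called lower and 6 higher against Ctrl, and the KLHL33 difference grew to -2.32. The part of depth in this order was not tested.

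EAE-induced mice were next compared with OVA-immunized mice on day 14, which share CFA. Here 13 members were called (15.7%; 18.8% of all genes), 9 lower (9.48% of all genes) and 4 higher (9.29%). The comparisons share the EAE samples; 7 of the 8 members lower against Ctrl and 7 of the 9 lower against OVA were the same genes, as was 1 of 4 higher (ASB5) in each. Of the 18 members above 20 RPKM, 9 were called (50%; 25.9% of all genes at that level), against 0 of 31 at 5 to 20 RPKM by limma (16.0%) and 4 of 34 at 1 to 5 RPKM (11.8%; 17.0%). Without the fold threshold 27 members passed, 16 higher and 11 lower (34.2% of all genes). Every EAE sample lay above every OVA sample for 13 members (15.2%) and below for 8 (7.6%).

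ASB4, known from vascular development, and FBXO9, known for the turnover of TEL2 and TTI1, were lower against OVA and not called against Ctrl. ASB4 measured 6.10, 5.05, 6.25, 5.58 and 7.51 RPKM in OVA, 2.40, 4.35, 4.66, 4.35 and 3.84 RPKM in Ctrl and 3.36, 2.42, 3.83, 4.00 and 2.16 RPKM in EAE. The OVA samples stood above all others, and the log2 fold change was -0.96 ± 0.20 against OVA (adjusted p = 0.00204) and -0.31 ± 0.20 against Ctrl (adjusted p = 0.219). Endothelial markers summed to 78.8 to 155 RPKM in OVA and 71.5 to 112 RPKM in EAE, and their part in the ASB4 result was not tested. FBXO9 measured 26.0, 26.1, 25.2, 23.7 and 23.6 RPKM in OVA and 18.1, 13.8, 17.1, 16.1 and 15.4 RPKM in EAE. These groups did not overlap, with a log2 fold change of -0.63 ± 0.10 (adjusted p = 3.12e-04). The FBXO9 call was lost without EAE replicate 2, where 4 members were called lower (KLHL33, ASB10, ASB4 and ASB12). Against Ctrl its log2 fold change was -0.48 ± 0.10 (adjusted p = 0.00188), under the fold threshold.

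FBXO17, FBXL22 and KLHL40 were higher against OVA and not called against Ctrl. KLHL40, the nebulin and leiomodin partner, measured 83.6, 58.0, 73.9, 73.7 and 103 RPKM in OVA, 86.9 to 122 RPKM in Ctrl and 170, 115, 100, 124 and 115 RPKM in EAE. EAE replicate 3 lay below the highest OVA sample, and the log2 fold change was 0.67 ± 0.16 against OVA (adjusted p = 0.00458) and 0.31 ± 0.16 against Ctrl (adjusted p = 0.127). FBXO17, a glycoprotein-binding F-box protein, measured 2.63, 1.59, 1.98, 1.75 and 1.81 RPKM in OVA and 4.39, 3.35, 2.44, 3.37 and 3.39 RPKM in EAE, with 1 OVA sample inside the EAE range (0.76 ± 0.15, adjusted p = 0.00159). FBXL22, a Z-disc F-box protein, measured 2.46, 1.26, 1.24, 1.45 and 2.01 RPKM in OVA and 4.5, 3.15, 2.24, 2.03 and 2.50 RPKM in EAE, which overlapped (0.73 ± 0.23, adjusted p = 0.0256). Against Ctrl, FBXO17 had 0.45 ± 0.15 (adjusted p = 0.0266) and FBXL22 0.23 ± 0.23 (adjusted p = 0.444). The FBXL22 call against OVA was lost without OVA replicate 2, 3 or 4 or EAE replicate 1 or 2, at adjusted p of 0.0557 to 0.0648. That of KLHL40 was lost without OVA replicate 2 (0.57) or EAE replicate 1 (0.55), where its fold was under 1.5. With a pseudocount of 1 the folds of FBXO17 (0.57) and FBXL22 (0.52) against OVA were under 1.5. After quantile normalization that of KLHL40 was too (0.57), and FBXL22 had an adjusted p of 0.0608 in limma's test. FBXL22 and KLHL40 overlap the genes Herc1 and Hhatl, among 16 members with an overlapping gene in the table, and the strand setting of the counting is not given in the sources used here.

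Immunization with OVA by itself left no member called against Ctrl on day 14 in limma's test (0.0819% of all genes were called), with 10 members at an unadjusted p below 0.05. The smallest adjusted p was 0.293, for ASB4 (log2 fold change 0.65 ± 0.20). The median log2 fold change over the members was 0.02.

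On day 40 no member was called in any comparison by limma. EAE against Ctrl called 0.491% of all genes and had 21 members at an unadjusted p below 0.05, EAE against OVA called 0.0910% and had 12, and OVA against Ctrl called 0 genes (0%) and had 6 members at an unadjusted p below 0.05. ASB2, the filamin receptor, came closest. It measured 165, 175, 169, 166 and 182 RPKM in Ctrl, 188, 175, 161, 202 and 172 RPKM in OVA and 161, 144, 146, 131 and 141 RPKM in EAE on day 40. Every EAE sample lay below every sample of both other groups, replicate 1 narrowly so, with a log2 fold change of -0.25 ± 0.07 against Ctrl (adjusted p = 0.0604) and -0.31 ± 0.07 against OVA (adjusted p = 0.0532). ASB14 had a log2 fold change of -0.38 ± 0.11 against Ctrl (adjusted p = 0.0628). Without Ctrl replicate 4 of day 40, 2 members were called lower against Ctrl, KLHL24 (-0.72, adjusted p = 0.0246) and FBXL18 (-0.74, adjusted p = 0.0445).

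The change of the EAE effect between the days was tested as the day 40 log2 fold change minus that of day 14. Against Ctrl, 21 members differed (25.3%; 31.5% of all genes), 8 upwards (11.3%) and 13 downwards (20.2%). The median of all genes was itself -0.14 on this scale, and median-of-ratios scaling, which brought it to 0.00, gave 11 upwards and 9 downwards. Against OVA, 13 members differed (15.7%; 19.9%), 6 upwards (7.41%) and 7 downwards (12.5%), and 7 and 2 after that scaling.

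Of the 8 members that changed upwards against Ctrl, 6 were among those called lower on day 14. KLHL33 moved from -2.04 to -0.28 ± 0.12 against Ctrl, a difference of 1.76 ± 0.32 (adjusted p = 1.24e-04), as its EAE samples of day 40 measured 68.9, 60.3, 64.8, 65.7 and 51.2 RPKM, of which replicate 1 alone lay within the Ctrl range of 68.1 to 89.7 RPKM. ASB10 changed by 1.29 ± 0.20 (adjusted p = 1.50e-05) and in EAE on day 40 measured 28.8 to 43.5 RPKM, around the Ctrl range of 35.6 to 38.9 RPKM. KLHL31 changed by 0.89 ± 0.21, ASB12 by 0.82 ± 0.20, ASB11 by 0.73 ± 0.20 and KLHL6 by 0.66 ± 0.21 (adjusted p of 0.00133 to 0.0126). The call of ASB11 was lost without EAE replicate 2 of day 14 and that of KLHL6 without Ctrl replicate 4 of day 14, both at 0.58. FBXO9 changed by 0.71 ± 0.18 against Ctrl and by 0.92 ± 0.18 against OVA (adjusted p = 0.00245 and 3.25e-04). FBXL15, a receptor for SMURF1, changed by 0.67 ± 0.26 (adjusted p = 0.0341), a call lost in 9 of 20 fits without 1 sample at adjusted p of up to 0.0857; these left out Ctrl replicates 1, 2 and 4 and EAE replicates 2 and 5 of day 14, and Ctrl replicates 1, 3 and 5 and EAE replicate 1 of day 40. ASB14 was not called (0.37 ± 0.26, adjusted p = 0.255).

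KLHL24, known for keratin turnover, had the largest downward change. On day 14 it measured 3.54, 11.1, 13.2, 14.2 and 15.8 RPKM in Ctrl and 14.2, 23.3, 17.6, 19.5 and 17.1 RPKM in EAE, and on day 40 22.0, 16.0, 33.9, 12.7 and 20.1 RPKM in Ctrl and from 9.96 to 18.6 RPKM (median 14.4 RPKM) in EAE. Groups overlapped on both days, and neither day was called by itself, while the difference was -1.37 ± 0.44 (adjusted p = 0.0138; -0.99 and adjusted p = 0.0283 without Ctrl replicate 1 of day 14). FBXL18, also called on neither day by itself, changed by -1.25 ± 0.39 (adjusted p = 0.0108; -0.98 and adjusted p = 0.0259 without that sample). ASB5 changed by -0.96 ± 0.23 (adjusted p = 0.00153), KLHL9 by -0.88 ± 0.18, KLHL13 by -0.85 ± 0.25, FBXO38 by -0.78 ± 0.20 and KLHL2 by -0.77 ± 0.15 (adjusted p of 2.24e-04 to 0.00685). After quantile normalization FBXO38 (-0.56) and KLHL2 (-0.52) were under the fold threshold. KLHL38, a Kelch-like gene of striated muscle, changed by -0.95 ± 0.39 (adjusted p = 0.0482), a call lost in 12 of 20 fits without 1 sample at adjusted p of up to 0.119; these left out Ctrl replicates 1 and 2 and EAE replicates 2, 3 and 5 of day 14, and Ctrl replicates 1, 3 and 5 and EAE replicates 1, 3, 4 and 5 of day 40. The other 5 downward members lay between -0.75 and -0.59.

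**Figure D4:**
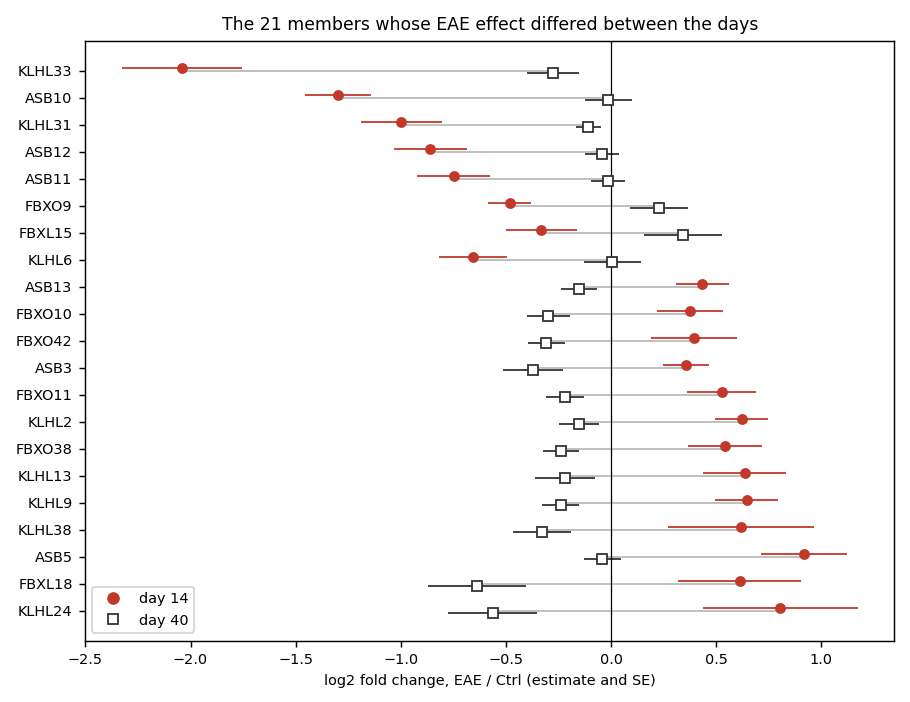
Log2 fold change of EAE over Ctrl on day 14 (red circles) and day 40 (open squares) with standard errors, for the 21 members whose change between the days was called, ordered by that change. KLHL33 moved from -2.04 to -0.28 and ASB5 from 0.92 to -0.04.

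Against OVA, KLHL33 (1.75 ± 0.32) and ASB10 (1.26 ± 0.20) had the largest upward changes, followed by ASB4 (0.93 ± 0.24), FBXO9 (0.92 ± 0.18), ASB12 (0.69 ± 0.20) and ASB11 (0.66 ± 0.20). Downward changes were found for FBXL22 (-0.89 ± 0.31), FBXO10 (-0.81 ± 0.18), KLHL30 (-0.75 ± 0.15), ASB5 (-0.69 ± 0.23), ASB3 (-0.65 ± 0.18), FBXO6 (-0.63 ± 0.14) and KLHL40 (-0.63 ± 0.19). Adjusted p ranged from 2.46e-05 for ASB10 to 0.0288 for FBXL22. That of FBXL22 rose above 0.05, to at most 0.0630, without OVA replicate 3 or EAE replicate 1 or 2 of day 14, or OVA replicate 1 or 5 or EAE replicate 5 of day 40. The fold fell under 1.5 for ASB12 (0.58 and 0.56 without EAE replicates 2 and 5 of day 14), ASB11 (0.51 without EAE replicate 2 of day 14), ASB5 (-0.53 without EAE replicate 1 of day 14), ASB3 (-0.55 without OVA replicate 2 of day 40), FBXO6 (-0.55 and -0.56 without OVA replicate 2 and EAE replicate 1 of day 14) and KLHL40 (-0.52, -0.51 and -0.55 without OVA replicate 2 or EAE replicate 1 of day 14 or EAE replicate 2 of day 40). After median-of-ratios scaling the downward calls of FBXL22, ASB5, ASB3, FBXO6 and KLHL40 were lost, at -0.76, -0.55, -0.52, -0.49 and -0.49. Quantile normalization removed those of FBXL22, ASB3, FBXO6 and KLHL40, and a pseudocount of 1 those of ASB3 and FBXO10. FBXO10, a receptor for BCL2, showed a narrow separation on day 40, at 1.11 to 1.16 RPKM in EAE against 1.23 to 1.56 RPKM in OVA.

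The rest of the ligase machinery was read on day 14 as background to its receptors. Of 13 scaffold and adaptor genes 2 were called, both higher against Ctrl and against OVA. Of all genes tested, 12.8% were called higher and 12.6% lower against Ctrl, and 9.29% and 9.48% against OVA. The counts in the gene lists were not tested against these shares. SKP1A, the adaptor of F-box proteins, measured 143, 159, 156, 154 and 129 RPKM in Ctrl and 356, 276, 211, 244 and 280 RPKM in EAE, without overlap (0.87 ± 0.14, adjusted p = 2.54e-04). CUL1, its cullin, was also separated, at 19.7 to 32.3 RPKM and 37.7 to 49.5 RPKM (0.68 ± 0.14, adjusted p = 0.00120; 0.57 without Ctrl replicate 1, under the fold threshold). Against OVA CUL1 had 0.59 ± 0.14 (adjusted p = 0.00388) and was under the fold threshold without OVA replicate 1 or 5 (both 0.53) or EAE replicate 2 (0.53) or 5 (0.57), with a pseudocount of 1 (0.57) and after median-of-ratios (0.52) or quantile (0.45) scaling. CUL3, the scaffold of Kelch-like proteins, and CUL5, that of ASB proteins, had log2 fold changes of 0.58 ± 0.21 and 0.52 ± 0.12 (adjusted p = 0.0391 and 0.00308) and were not called. Elongin C (TCEB1) and elongin B (TCEB2) had 0.02 ± 0.14 and -0.19 ± 0.21.

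Of 15 activation genes, 2 were called higher and 1 lower against Ctrl (12.8% and 12.6% of all genes). Against OVA 0 were called by limma (18.8% of all genes either way), where 6 had an unadjusted p below 0.05. UBA3, of the NEDD8-activating enzyme, and the ubiquitin-conjugating UBE2G1 had 0.83 ± 0.22 and 0.67 ± 0.14, both under the fold threshold without Ctrl replicate 1, and UBE2R2 had -0.71 ± 0.16. Of 13 restraint and exchange genes, 4 were higher against Ctrl: the COP9 signalosome subunits COPS5 (0.85 ± 0.13), COPS3 (0.71 ± 0.14) and COPS2 (0.70 ± 0.15), which remove NEDD8 from cullins as a complex, and the RBX1 inhibitor GLMN (0.89 ± 0.21). Without Ctrl replicate 1, 3 of them were called, and against OVA COPS5 alone was (0.74 ± 0.13).

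Among 25 receptors with other symbols, 6 were higher and 2 lower against Ctrl (12.8% and 12.6% of all genes). Against OVA 4 were higher and 2 lower (9.29% and 9.48%). SPSB2, a CUL5 receptor for inducible nitric oxide synthase, measured 4.98 to 6.73 RPKM in Ctrl and 8.32 to 27.5 RPKM in EAE (1.43 ± 0.23, adjusted p = 2.23e-04). KBTBD13, the nemaline myopathy Kelch protein, measured 8.09 to 9.77 RPKM in Ctrl and 1.70 to 4.90 RPKM in EAE (-1.54 ± 0.22, adjusted p = 7.94e-05). SOCS1, a cytokine signalling inhibitor, had -1.73 ± 0.24 against Ctrl and was not called against OVA. The 5 muscle F-box genes kept out of the members include FBXO32 (atrogin-1), which measured 29.3 to 55.6 RPKM in Ctrl and 52.0 to 223 RPKM in EAE (1.58 ± 0.33, adjusted p = 0.00164). Of these 5, 4 were called higher against Ctrl and 2 against OVA. Without Ctrl replicate 1, 3 of the 5 were called against Ctrl, since FBXO40 had 0.84 (adjusted p = 0.0770). Its call was also lost without Ctrl replicate 2 or 3 or EAE replicate 2, 3, 4 or 5, at adjusted p of 0.0503 to 0.0892.

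**Figure D5:**
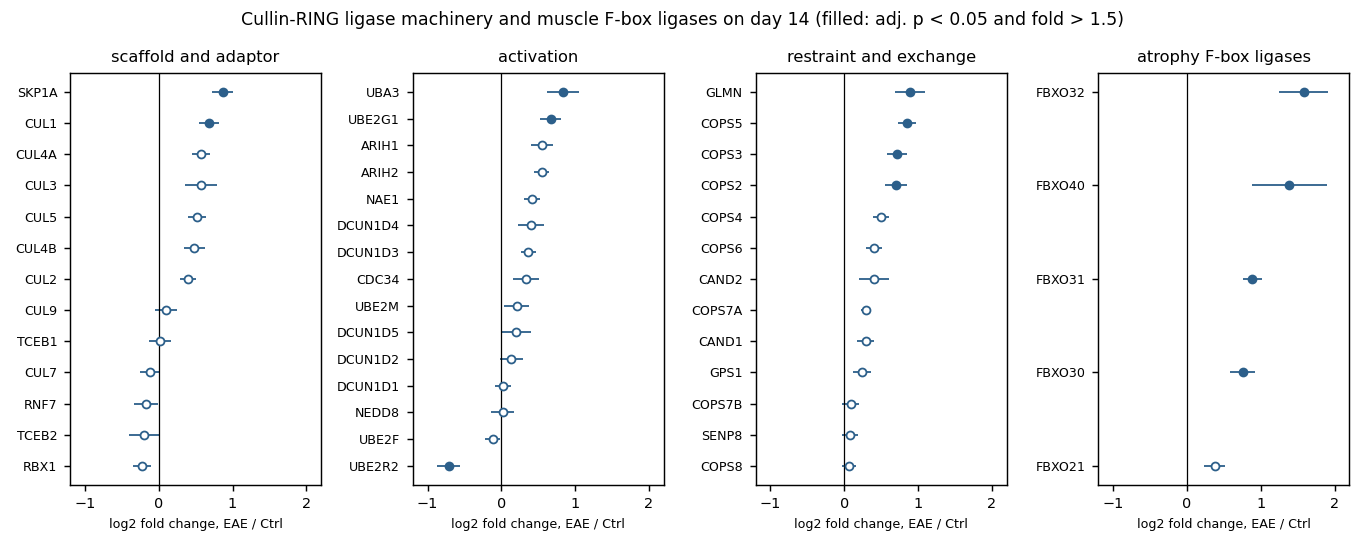
Log2 fold change of EAE over Ctrl on day 14 with standard errors for cullin-RING scaffold and adaptor genes, activation genes, restraint and exchange genes, and the 5 muscle F-box ligases outside the members; filled points were called. SKP1A stood at 0.87, COPS5 at 0.85 and FBXO32 at 1.58.

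Genes whose proteins are known partners or substrates of the members were followed as transcripts. Of 16 tested, 8 were called higher against Ctrl (12.8% of all genes) and 5 against OVA (9.29%). Without Ctrl replicate 1, 6 remained higher against Ctrl. FLNC, filamin C, a known target of KLHL31 and of FBXL22, measured 59.4, 62.2, 89.0, 78.6 and 91.1 RPKM in Ctrl and 192, 285, 137, 182 and 190 RPKM in EAE. Its groups did not overlap (1.36 ± 0.24, adjusted p = 4.73e-04). NEB, the nebulin bound by KLHL40 and KLHL41, had 1.12 ± 0.33 (adjusted p = 0.0127) against Ctrl and was not called against OVA. LMOD3, leiomodin-3, had -0.26 ± 0.18 (adjusted p = 0.252). Protein levels were not measured.

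Marker transcripts of other cell types were read on day 14 as well. Of all genes tested, 12.6% were called lower and 12.8% higher in EAE against Ctrl. Against Ctrl, fibroblast markers were lower for 6 of 7 genes (338 to 544 RPKM summed in EAE and 937 to 2075 RPKM in Ctrl). Erythroid markers were lower for 4 of the 4 above the floor (of 5 with values) and endothelial markers for 2 of 7. Schwann cell markers were lower for 0 of 6 by limma (0 at an unadjusted p below 0.05). Of 8 neutrophil markers, 5 were above the floor of 1 RPKM and all 5 were higher. The 8 summed to 3.79 to 10.7 RPKM in Ctrl, 217.5 to 403 RPKM in EAE and 68.6 to 236 RPKM in OVA. Markers could thus pass the floor through the groups where they were high, so this share was partly set by the floor. Of the same 5, 4 were higher in OVA against Ctrl as well, where no member was called. Fast-fibre markers were lower for 3 of 10 and slow-fibre markers for 3 of 8 against Ctrl. No marker was at 0 in all samples, and the part of these cell types in the members' changes was not tested.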

How the data were processed

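The deposited table holds 21073 genes and 30 samples. Per the labels and the study's methods, the authors aligned paired-end reads to mm10 with Subread, used featureCounts to count those on RefSeq transcripts, and derived RPKM values; the strand and multi-read settings of the counting are not given in the sources used here. The deposited values are log2(RPKM + 1), with 0.0001 for a gene without a read: 74.0% of 8689 low values lay within 0.08 of a whole read on that reading and 6.33% of 8055 when read as RPKM. They were converted back to RPKM, with 0.0001 set to 0. Depth was estimated from the same single-read steps.

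Differences were tested with limma 3.58.1 in R 4.3.3 (moderated statistics, prior variance following mean level) on the log2 scale after adding 0.1 RPKM, which understates the change of low genes. The 15 samples of a day entered 1 model, and all 30 the test of day dependence. The 10989 genes with a mean above 1 RPKM over all samples were tested and p-values adjusted over all of them by Benjamini-Hochberg; a call required adjusted p below 0.05 together with a change of more than 1.5-fold. The authors used edgeR on counts, which were not used here. The model was run on simulated data drawn with the means and spread of the OVA samples of day 40. That group had the smallest spread, with a median SD of 8.60% of the mean over the members. It was 16.3% in Ctrl and 12.7% in EAE of day 14, so the run does not cover the spread of day 14.

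Members, gene lists and motifs were chosen with earlier results of these data known. Named were, per comparison, up to 8 called members in each direction by size, the 10 most abundant members, those near the floor, members called on day 40 in any setting, and genes of the pathway and marker lists; the values of named members in other comparisons, and those singled out for the smallest adjusted p (FBXO6), were added after being seen. Samples were grouped by their labels and none was left out. No pair of the 60 same-group pairs held identical values. Dose units of the antigens differ between the paper and the deposited design text and are not given here.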

Additional observations from a re-analysis of the deposited data

Results flagged for a closer look

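Of 174 groups of 5 samples examined for the named members, 10 had a sample far from the other 4, and chance gives about 1 in 20. Among unimmunized mice of day 14 these were KLHL9 in replicate 1 (7.65 RPKM, others 13.2 to 14.1), KLHL13 in replicate 1 (1.23 RPKM, others 2.80 to 2.98) and KLHL41 in replicate 3 (381 RPKM, others 332 to 341). In EAE-induced mice of day 14 it was FBXO38 in replicate 2 (9.72 RPKM, others 7.64 to 8.11). In OVA-immunized mice of day 40 they were KLHL24 in replicate 5 (13.7 RPKM, others 17.1 to 18.5), KLHL30 in replicate 2 (43.0 RPKM, others 30.9 to 34.0) and KLHL9 in replicate 4 (14.6 RPKM, others 13.0 to 13.3). In EAE-induced mice of day 40 they were ASB14 in replicate 2 (37.4 RPKM, others 26.9 to 29.6), FBXL15 in replicate 1 (3.37 RPKM, others 1.73 to 1.93) and KLHL9 in replicate 2 (14.6 RPKM, others 10.7 to 11.8).

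The EAE effect of 29 named results differed between day 14 and day 40 by the interaction in limma (log2 fold change of day 40 minus that of day 14). Against Ctrl, upward differences were 1.76 for KLHL33, 1.29 for ASB10, 0.89 for KLHL31, 0.82 for ASB12, 0.73 for ASB11, 0.71 for FBXO9, 0.67 for FBXL15 and 0.66 for KLHL6. Downward differences against Ctrl were -1.37 for KLHL24, -1.25 for FBXL18, -0.96 for ASB5, -0.95 for KLHL38, -0.88 for KLHL9, -0.85 for KLHL13, -0.78 for FBXO38 and -0.77 for KLHL2. Against OVA, upward differences were 1.75 for KLHL33, 1.26 for ASB10, 0.93 for ASB4, 0.92 for FBXO9, 0.69 for ASB12 and 0.66 for ASB11. Downward differences against OVA were -0.89 for FBXL22, -0.81 for FBXO10, -0.75 for KLHL30, -0.69 for ASB5, -0.65 for ASB3, -0.63 for FBXO6 and -0.63 for KLHL40.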

How the results depend on the processing

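Of the 12 members called in EAE against Ctrl on day 14, 8 kept their call in every fit without 1 sample and under every other setting with the fold threshold (ASB5, KLHL33, ASB10, KLHL31, ASB12, ASB14, ASB11 and KLHL21). Of the 12 calls against OVA named by size 4 did (KLHL33, ASB10, ASB4 and ASB12). FBXO9, called lower against OVA but not among these 12, lost that call without EAE replicate 2 of day 14. In the day dependence, 10 of 16 named calls against Ctrl and 5 of 13 against OVA were kept throughout. No call reversed, while values that were not called changed sign in some fits for ASB2 on day 14 (-0.27 to 0.05 against Ctrl and -0.24 to 0.08 against OVA without 1 sample) and for ASB5, ASB11 and KLHL30 against Ctrl on day 40. Called higher against Ctrl on day 14 were 4 members, 2 with a pseudocount of 1, 1 after median-of-ratios scaling, 2 after quantile normalization and 19 without a fold threshold, and called lower 8 and 15 without a fold threshold. Against OVA, 4 members were higher, 2 with a pseudocount of 1, 2 after quantile normalization and 16 without a fold threshold. In the day dependence, 13 members were lower against Ctrl, 6 after quantile normalization and 21 without a fold threshold; against OVA 7 were lower, 4 with the filter above 3 RPKM, 2 after median-of-ratios scaling, 4 after quantile normalization and 16 without a fold threshold. Leaving out each sample in turn gave 2 to 6 higher and 7 to 9 lower against Ctrl on day 14, 1 to 8 higher and 4 to 10 lower against OVA, 0 to 2 lower against Ctrl on day 40, 6 to 9 higher and 10 to 15 lower in the day dependence against Ctrl, and 4 to 8 and 5 to 9 against OVA. The single samples behind the widest moves were Ctrl replicate 1 (2 higher against Ctrl), OVA replicates 2 and 5 (2 and 8 higher against OVA), EAE replicates 1 and 3 (1 and 7 higher) and EAE replicate 2 (4 lower), all of day 14, and Ctrl replicate 4 of day 40 (2 lower). The cause was not tested. Replicate numbers did not pair the samples throughout: 7 of 30 same-numbered pairs correlated above 0.1 (median -0.06, from -0.68 to 0.66). Of 60 best matches, each of a sample with another group of its day, 7 had the same number. The highest correlations belonged to replicate 1 of day 14: 0.66 for OVA and EAE, 0.58 for Ctrl and OVA and 0.48 for Ctrl and EAE. The cause of these correlations was not tested. With the replicate block, 6 members were higher and 8 lower against Ctrl on day 14, 4 and 10 against OVA, and 8 and 14 and 6 and 7 in the day dependence; the counts of day 40 stayed at 0. With all 30 samples in 1 model, 5 and 8 members were called against Ctrl and 4 and 10 against OVA on day 14. The 5 samples a group limit what could be called.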
